A study of Mus musculus with 2 samples.

Results

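The genes described here are 10 genes of lipoprotein particles in mouse liver: Apoa1, Apoa2, Apoa4, Apoa5, Apob, Apoc1, Apoc2, Apoc3, Apoe and Mttp. They were taken by symbol from the 31053 genes of the count tables, and all 10 were found. The set was selected on hepatocyte levels by diet, in which Apoa4 was known to stand out, and on levels by zone and in other cells. These values are therefore given as a description. Single-cell RNA sequencing compared livers of C57BL/6 mice fed chow (1 library) and a NASH diet (1 library) for 6.5 weeks. NASH is non-alcoholic steatohepatitis, an inflamed fatty liver, and that diet was high in cholesterol, fat and fructose. Per the labels, tissue was digested with collagenase and cells were recovered over Percoll gradients to collect non-parenchymal cells and hepatocytes of several densities. The sources used here do not give the number, age or sex of the mice behind a library. With 1 library per diet there is no replicate check, no test is possible, and every interval below is a 95% interval that covers counting error only.

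Lipoproteins carry fat and cholesterol through plasma. Hepatocytes build very low density lipoprotein around apolipoprotein B, the product of Apob, and the transfer protein encoded by Mttp loads lipid onto it. The smaller apolipoproteins are exchanged between particles: apolipoproteins A-I and A-II are the main proteins of high density lipoprotein, C-II and A-V favour the hydrolysis of triglyceride by lipoprotein lipase, C-I and C-III restrain it or the uptake of remnants, and E is a ligand for uptake receptors. Apolipoprotein A-IV is made in intestine and liver and travels on triglyceride-rich particles and high density lipoprotein. In liver, periportal hepatocytes lie where blood enters the lobule and pericentral hepatocytes where it leaves.

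Apoa4 (ENSMUSG00000032080) lies at chr9:46240696-46243459 on the plus strand of GRCm38, within 43.3 kb that also hold Apoa1, Apoc3 and Apoa5. Apoa1 is at chr9:46228580-46230466 and Apoa5 at chr9:46268633-46271919, both on the plus strand, and Apoc3 lies between Apoa1 and Apoa4 on the minus strand at chr9:46232933-46235636. Apoc2, Apoc1 and Apoe lie within 27.6 kb of chromosome 7 on the minus strand, at chr7:19671579-19677941, chr7:19689481-19692660 and chr7:19696109-19699188. The other members stand apart, Apoa2 at chr1:171225054-171226379, Apob at chr12:7977648-8016835 and Mttp at chr3:138089854-138144968. All 10 are protein-coding genes in GENCODE M21. The bases before the start of Apoa4 and of Apoa1 are printed because these genes share a locus and differed in their diet ratio and zone profile. They are RefSeq sequences of GRCm38.p6, plus strand, 5′ to 3′, for chr9:46240594-46240695 and chr9:46228380-46228579, and capitals mark a match to a spelling of the HNF4A motif.
Apoa4: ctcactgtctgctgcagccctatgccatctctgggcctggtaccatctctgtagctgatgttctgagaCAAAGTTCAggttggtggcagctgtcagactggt
Apoa1: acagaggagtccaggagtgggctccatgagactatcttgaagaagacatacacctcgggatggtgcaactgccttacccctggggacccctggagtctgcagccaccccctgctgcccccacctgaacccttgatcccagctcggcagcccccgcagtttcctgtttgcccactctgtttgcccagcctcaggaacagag
HNF4A is a nuclear receptor that is known to act on many hepatocyte genes. The 250 bases before each RefSeq start were searched on both strands for CAAAGTCCA, CAAAGTTCA, CAAAGGTCA, CAAAGGTCC, TATAAA and CCAAT, and the only matches in members that overlap each other are a pair of TATAAA matches before a start of Apoe. CAAAGTTCA was in 110 of 32851 windows of that length (0.335%), any of the first 4 spellings in 1.40%, TATAAA in 12.4% and CCAAT in 33.9%. Windows were found for 8 of the 10 members, not for Apoc1 and Apoc3, and 2 of the 8 held one of the first 4 spellings. In Apoa4 the match began 182 bases before the RefSeq start, which is base 46240844. The printed stretches end instead just before the GENCODE starts given above. The RefSeq start of Apoa1 is base 46228630. In Apob, CAAAGGTCC was read on the minus strand, its leftmost base at position -95, and TATAAA at position -60. These are matches of letters and show no binding. A stretch without a match, such as that of Apoa1, may still hold a site in another spelling.

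Most of the members' UMIs lay in hepatocyte barcodes, for Apoa4 6952 of 7318 deposited on chow and 21850 of 27108 on the NASH diet. After barcodes with under 200 genes or over 30% mitochondrial UMIs were set aside, 4326 of 7359 chow barcodes and 2369 of 5881 NASH diet barcodes were kept. A UMI (unique molecular identifier) counts 1 captured RNA molecule. Barcodes with at least 5000 UMIs and no marker gate of another cell type were called hepatocytes: 2004 in chow, with 51336561 UMIs, and 1090 in NASH diet, with 23030121. In both libraries 100% of them held at least 3 of 8 hepatocyte markers such as Alb and Ttr. Alb was also in 88.7% (chow) and 97.0% (NASH diet) of barcodes gated as Kupffer cells, so that share sets hepatocytes apart little. Defining markers of other cell types were low in hepatocytes. Endothelial markers were at 4.52 CPM (UMIs per 1000000) in chow and 10.5 in NASH diet, and Kupffer markers at 2.98 and 2.95. Cholangiocyte markers summed to 146 and 42.2 CPM, erythroid markers to 43.8 and 59.3, other leukocyte markers to 3.31 and 21.1, and mesenchymal markers to 1.33 and 2.91. The libraries differed in quality: the median mitochondrial share of all barcodes was 20.7% in chow and 34.3% in NASH diet, and of hepatocytes 18.4% and 23.2%. Median depth of a hepatocyte was 25780.5 and 20402.5 UMIs. The part of these differences in the results was not tested, but values within ranges of depth and mitochondrial share are given below. The libraries had 69 barcodes in common, of which 2 were hepatocytes in both.

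In hepatocytes, Apoa4 was 6.96-fold higher on the NASH diet than on chow, while Apoe, Apoa2 and Apoc1 were 1.58, 1.54 and 1.43-fold higher and the other measured members were within 10% of their chow level. CPM here is taken over the summed UMIs of all hepatocytes of a library. Together the 10 genes held 4.29% of hepatocyte UMIs on chow and 5.81% on the NASH diet. Among non-mitochondrial UMIs their share was 5.24% and 7.39%. Of the members' UMIs, Apoa4 made up 0.316% on chow and 1.63% on the NASH diet.

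**Figure D1:**
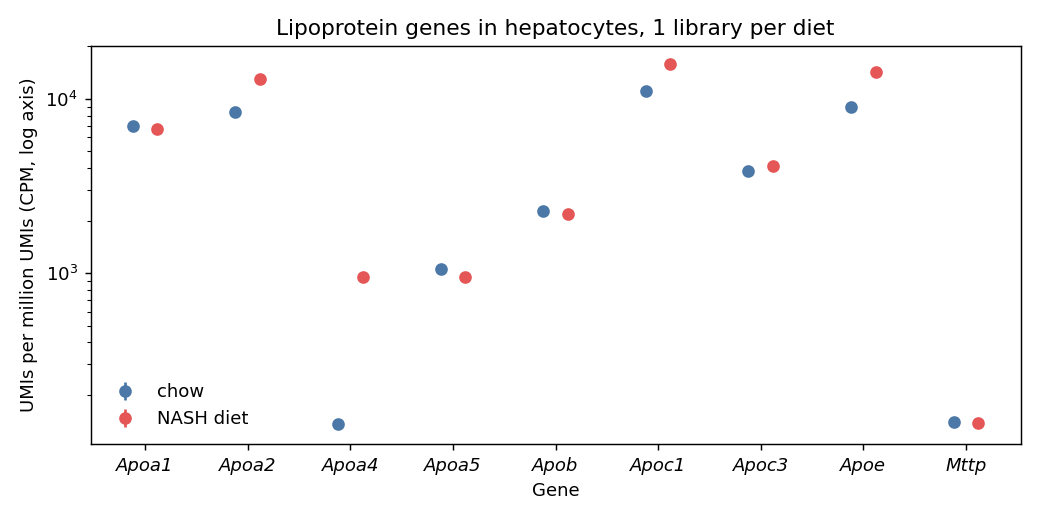
Level of 9 members in hepatocytes (CPM, log axis) in the chow library (blue) and the NASH diet library (red), 1 library per diet; 95% counting intervals are smaller than the points. Apoa4 has the widest gap, from 135 to 949 CPM, while Mttp, Apob and Apoa1 lie nearly level.

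Diet ratios are log2 ratios of CPM plus a pseudocount of 1, NASH diet over chow. Genes with a mean of at least 10 CPM over the libraries were counted, and 9 of the 10 members passed this filter. Of these, 1 (Apoa4) had a ratio of at least 1 and 0 had a ratio of -1 or less. Over all 6217 genes that passed, 2.99% were past 1 in the higher direction and 2.30% in the lower, 5.29% in either. When the libraries were scaled by the median ratio of all genes, 2.16% were higher and 3.09% lower. Apoa4 ranked 13 of 6217 from the highest ratio. The members were chosen with these values known, so nothing is read from that rank. The median ratio of all genes was 0.14 and that of the 9 members 0.09, with 4 members above the median of all genes and 5 below it.

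Apoa4 gave 6952 UMIs on chow, or 135 CPM (132 to 139), and 21850 UMIs on the NASH diet, or 949 CPM (936 to 961). The log2 ratio was 2.80 (2.77 to 2.85), and 2.66 relative to the median of all genes. Set against its neighbour Apoa1 in the same cells, Apoa4 amounted to 1.94% of the Apoa1 UMIs on chow and 14.0% on the NASH diet. A pair of annotated genes overlap Apoa4 on the opposite strand: Gm10680 had 2 and 7 UMIs in hepatocytes, and Gm47528 was not analysed here. The sources used here do not give whether the counting used strand, so reads of Apoa4 and an antisense partner could not be told apart.

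The other genes of the chromosome 9 locus had no such difference. Apoa1 was at 6994 CPM on chow and 6754 on the NASH diet, with a log2 ratio of -0.05 and, against the median of all genes, -0.19. Apoc3, which restrains triglyceride clearance, was at 3878 and 4118 CPM with a ratio of 0.09, which became -0.06 relative to that median, so its direction depended on the scaling. Apoa5, which favours clearance, was at 1052 and 956 CPM, with a ratio of -0.14 (-0.16 to -0.12), or -0.28 relative to the median. Thus within 43.3 kb 1 gene of 4 was past a ratio of 1.

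Among the genes of particle assembly, Apob was at 2262 CPM on chow and 2170 on the NASH diet, with a log2 ratio of -0.06 (-0.08 to -0.05) and, against that median, -0.20. Mttp was at 140 (137 to 143) and 138 (133 to 143) CPM, intervals that overlap. Its ratio was -0.02 (-0.08 to 0.04) and -0.16 relative to the median. Both were near level over all hepatocytes, but with a mitochondrial limit of 20% Apob had a ratio of -0.45 and Mttp one of -0.40, and with a limit of 10% -0.32 and -0.54.

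Apoe, Apoa2 and Apoc1 were higher on the NASH diet, each by less than a log2 ratio of 1. Apoe was at 9017 CPM on chow and 14249 on the NASH diet (0.66, or 0.52 relative to the median of all genes). Apoa2 was at 8410 and 12926 CPM (0.62, or 0.48). Apoc1 was at 11031 and 15787 CPM (0.52, or 0.38). Counting intervals of the libraries did not overlap for these 3 genes, nor for Apoa1, Apoa4, Apoa5, Apob and Apoc3. The share of all genes with intervals apart was not counted, and at such counts this does not set a gene apart. Alb, which encodes albumin and is no member, had a ratio of 0.53 in the same cells, from 25304 to 36615 CPM. Apoc2 had 170 UMIs on chow and 134 on the NASH diet, 3.31 and 5.82 CPM, and did not pass the filter. Its log2 ratio was 0.66, and from 0.25 to 1.70 over 20 alternatives, of which 4 put it at 1 or more. The mitochondrial limit of 10% and the share under 10%, both at 1.70, are the same hepatocytes counted as separate alternatives. Its value is uncertain, since 99.9% of its span is also annotated, on the same strand, to the read-through gene Gm44805, which had 2 and 1 UMIs. Reads that fit both genes may have been left out of both. Apoc4, the apolipoprotein gene that lies next to Apoc2, was at 1797 and 1801 CPM.

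Depth and mitochondrial share differed between the libraries, so each ratio was also taken within ranges of either. Apoa4 was higher on the NASH diet in all 6 ranges. Its log2 ratio was 3.47 at 5000 to 15000 UMIs, 3.01 at 15000 to 30000 and 2.13 above 30000, where the level was 143 CPM on chow and 629 on the NASH diet. By mitochondrial share it was 2.87 under 10%, 2.65 at 10 to 20% and 3.47 at 20 to 30%. Zone moved with depth: of the 166 NASH diet hepatocytes above 30000 UMIs, 105 were in the pericentral part defined below. Within a zone, the ratio above 30000 UMIs was 2.60 in pericentral, 2.82 in middle and 2.70 in periportal hepatocytes.

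Apoe, Apoa2 and Apoc1 were also higher on the NASH diet in all 6 ranges, from 0.58 to 0.75 for Apoe, 0.49 to 0.91 for Apoa2 and 0.37 to 0.85 for Apoc1. Apoa1, Apob, Apoa5 and Mttp had ratios on both sides of 0. Among these 4 the largest spread was that of Apoa1, from -0.18 above 30000 UMIs to 0.70 in hepatocytes with under 10% mitochondrial UMIs.

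**Figure D2:**
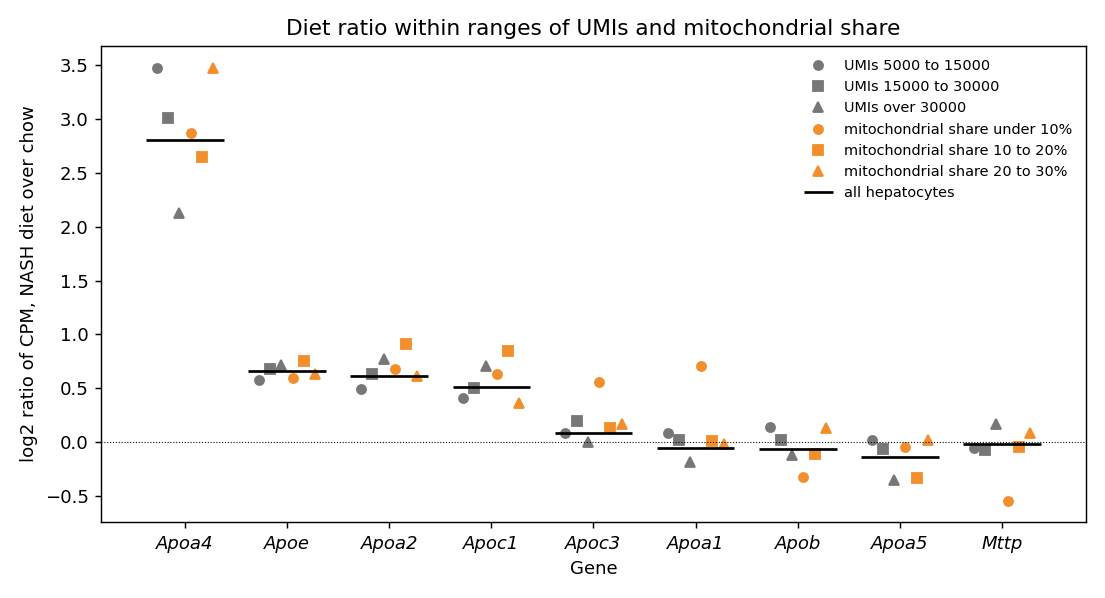
Log2 ratio of CPM, NASH diet over chow, for 9 members within 3 ranges of UMIs per hepatocyte (grey) and 3 ranges of mitochondrial share (orange); black bars are all hepatocytes. Apoa4 stays between 2.13 and 3.47, and the points of Apoe, Apoa2 and Apoc1 all lie above 0, while those of Apoa1, Apob, Apoa5 and Mttp lie on both sides of it.

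Hepatocytes with under 10% mitochondrial UMIs, 158 on chow and 132 on the NASH diet, had another makeup of these genes in both libraries. Apob was at 265 and 212 CPM in them, against 2432 and 2259 in hepatocytes with 10 to 20%. Apoa5 was at 236 and 229 CPM against 1102 and 874, and Mttp at 15.1 and 10.1 against 146 and 142. Apoc1, Apoa2 and Apoc3 went the other way: Apoc1 was at 15954 and 24729 CPM against 10960 and 19766, and Apoa2 at 12742 and 20444 against 8692 and 16351, and Apoc3 at 5101 and 7530 against 4115 and 4516. Apoa1 was at 4664 and 7604 CPM against 7341 and 7400, and Apoe at 5486 and 8299 against 9045 and 15222. The annotated exons of Apoa2, Apoc1 and Apoc3 cover 537, 744 and 1014 bases, those of Apoa1 and Apoe 1236 and 2138, and those of Apoa5, Mttp and Apob 2522, 6206 and 13934. The part of RNA quality in this was not tested.

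Barcodes set aside for their mitochondrial share had the same direction for Apoa4. In CPM of non-mitochondrial UMIs, it was at 108 on chow and 1184 on the NASH diet where the mitochondrial share was 30 to 80%, and at 96.7 and 1012 where it was above 80%. Over all deposited barcodes it was at 155 and 1108, a log2 ratio of 2.83. The higher Apoa4 level was thus also present in the barcodes left out of the hepatocyte counts.

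On the NASH diet more hepatocytes held Apoa4, and those that did held more UMIs of it. To compare cells at equal depth, each hepatocyte was thinned at random to 5000 UMIs, which left out no hepatocyte. Apoa4 was then detected in 35.9% of chow hepatocytes (33.8 to 38.1) and 72.5% of NASH diet hepatocytes (69.7 to 75.1, exact Clopper-Pearson). Thinned to 2000 UMIs the shares were 18.8% and 57.3%, and without thinning 70.4% and 87.9%. In Kupffer cells, which should lack the gene, 1.61% (chow) and 15.2% (NASH diet) of barcodes held an Apoa4 UMI. Their median depths were 4537 and 1307 UMIs and they were not thinned, so these shares do not compare with those of hepatocytes. By level, on 1 and 5 UMIs, Apoa4 in Kupffer barcodes was at 2.60 CPM (0.07 to 14.5) and 70.2 CPM (22.8 to 164). In hepatocytes it was at 135 and 949 CPM.

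At 5000 UMIs per cell, 2.44% of chow and 38.4% of NASH diet hepatocytes held at least 5 Apoa4 UMIs, and the highest count in 1 cell was 12 and 44. The mean was 0.650 and 4.89 UMIs. The spread beyond counting noise, as a coefficient of variation, was 1.40 on chow and 1.16 on the NASH diet. It was 0.335 to 0.562 over the other 8 members that passed the filter, in either library. Mttp had nearly the mean of Apoa4 on chow, 0.670 UMIs, but a variation of 0.411, and its share of cells with a UMI was 46.6% and 46.1%. Apoa4 was thus the most uneven of the 9 genes between hepatocytes in both libraries.

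**Figure D3:**
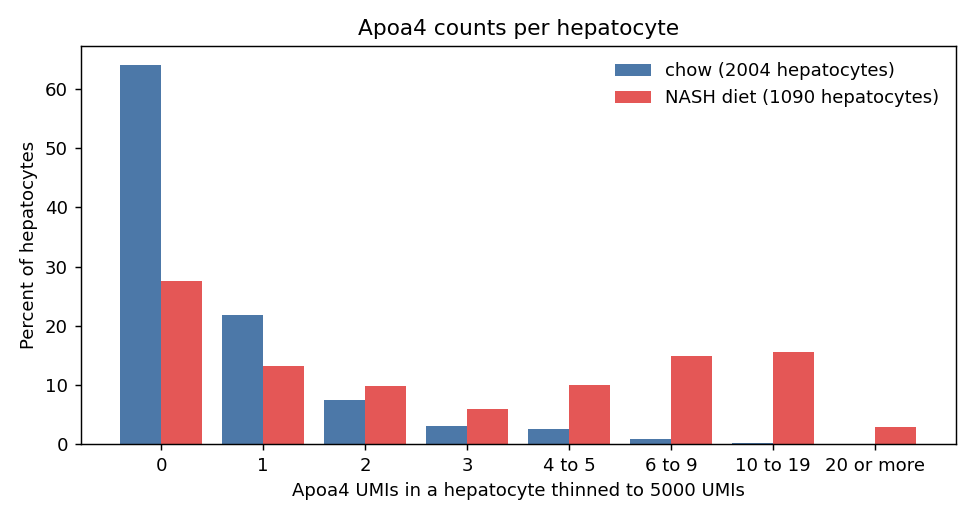
Percent of hepatocytes (y axis) by number of Apoa4 UMIs after thinning to 5000 UMIs (x axis, classes of unequal width at the right) in 2004 chow (blue) and 1090 NASH diet (red) hepatocytes. Chow hepatocytes pile up at 0 and 1, and 38.4% of NASH diet hepatocytes are at 5 or more.

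Apoa4 followed the axis of the lobule in both libraries. Hepatocytes of a library were ranked by a score of 10 periportal less 10 pericentral markers, none of them a member, and split into 3 equal parts. On chow Apoa4 was at 36.8 CPM in the pericentral, 130 in the middle and 237 in the periportal part. On the NASH diet it was at 238, 1058 and 1670 CPM, with parts of equal size within each library. With borders set over both libraries together, 27.4% of chow and 44.3% of NASH diet hepatocytes were periportal. Apoa4 was then at 38.1, 142 and 248 CPM on chow and at 177, 982 and 1568 on the NASH diet. Zone markers themselves differed between the libraries. Glul was at 726 CPM on chow and 2440 on the NASH diet in the pericentral equal part, and Ctsc at 281 and 125 in the periportal one. The shares under common borders are therefore not read as the makeup of the lobule. In the equal parts, the log2 ratio of Apoa4, periportal over pericentral, was 2.65 on chow (2.56 to 2.81). On the NASH diet it was 2.81 (2.75 to 2.88). Over all genes that passed the filter within a library, 1.73% on chow and 1.68% on the NASH diet were past 1 in the periportal direction, and 2.42% and 4.20% in the pericentral direction.

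The diet ratio of Apoa4 was 2.66 in the pericentral, 3.02 in the middle and 2.81 in the periportal part, so it was past 1 in each. Thinned to 5000 UMIs, an Apoa4 UMI was in 15.9%, 37.3% and 54.6% of chow hepatocytes from pericentral to periportal, and in 37.1%, 86.5% and 93.9% of NASH diet hepatocytes. At least 5 UMIs were in 5.24% of periportal hepatocytes on chow and 68.0% on the NASH diet. Median depth ran from 24784 to 27049.5 UMIs over the chow parts and from 18745 to 23401.5 over the NASH diet parts. The score is continuous, and 19.96% of chow and 25.8% of NASH diet hepatocytes lay within 0.1 SD of the score from a border between parts.

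In 10 equal bins of the score, Apoa4 on chow went from 23.5 CPM in the most pericentral bin to 102 in bin 5 and 300 in the most periportal (285 to 315). On the NASH diet it went from 125 to 884 and 1802 CPM. The steepest step on the NASH diet lay between bin 3, at 310 CPM, and bin 4, at 802 CPM. On chow the same bins were at 45.4 and 60.2 CPM.

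**Figure D4:**
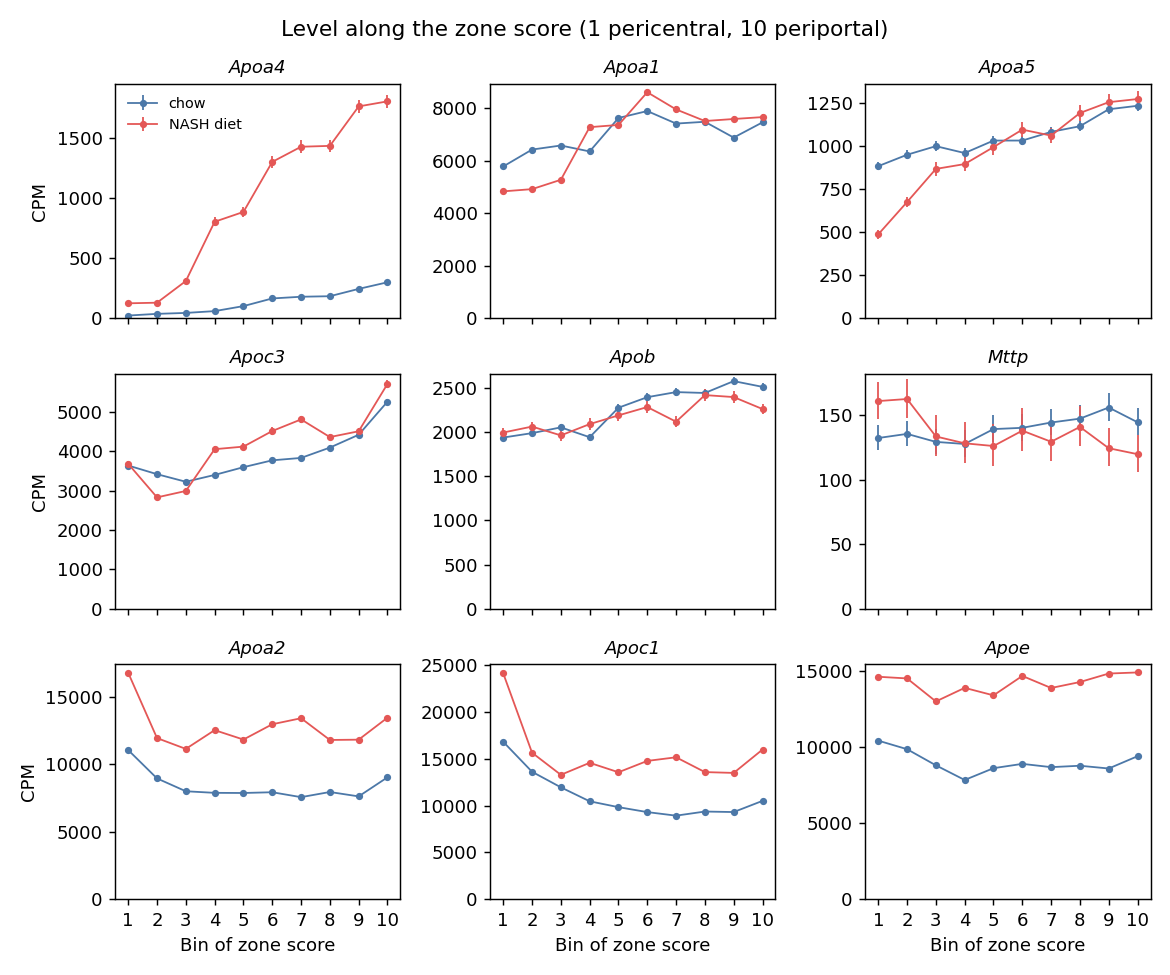
Level (CPM) of 9 members in 10 equal bins of hepatocytes ranked by zone score, from pericentral (1) to periportal (10), in the chow (blue) and NASH diet (red) libraries; bars are 95% counting intervals. Apoa4 climbs along the axis in both libraries, to 300 CPM on chow and 1802 on the NASH diet, while Apoe, Apoa2 and Apoc1 are higher on the NASH diet in every bin.

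The other members that passed the filter were far flatter along the axis, with every log2 ratio of periportal over pericentral between -0.52 and 0.87. Apoc2, which did not pass it, had 0.73 on chow and 1.26 (0.85 to 2.21) on the NASH diet. The latter rested on 27 pericentral and 67 periportal UMIs and went from 0.23 to 2.17 over alternatives. The periportal part was higher for Apoa1 (0.22 on chow, 0.56 on the NASH diet), Apoa5 (0.32 and 0.87), Apoc3 (0.41 and 0.61) and Apob (0.33 and 0.21). The NASH diet value of Apob became -0.09 with a mitochondrial limit of 20%. Apoc1 was higher in the pericentral part (-0.52 and -0.30), as was Apoa2 (-0.18 and -0.11). Apoe was near level, at -0.09 and 0.02, and both values changed sign with a mitochondrial limit of 20%. Mttp was at 0.17 on chow and -0.24 on the NASH diet.

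Pericentral hepatocytes held the lower NASH diet values of some members. Apoa5 was at 946 CPM on chow and 675 on the NASH diet in the pericentral part (log2 ratio -0.49), against 1185 and 1235 in the periportal part (0.06). In the most pericentral bin it was at 884 and 488 CPM. Apoa1 was at 6256 and 5095 CPM in the pericentral part (-0.30) and at 7287 and 7495 in the periportal part (0.04). The difference of the diet ratio between zones could not be tested with 1 library per diet. Apoe, Apoa2 and Apoc1 were higher on the NASH diet in each part, from 0.57 to 0.73, 0.55 to 0.68 and 0.37 to 0.59.

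Across hepatocytes thinned to 5000 UMIs, the genes most like Apoa4 were chosen as the 5 with the highest Pearson r of log2(UMIs + 1) in the library where it was lower. Among 1836 genes with at least 50 CPM in both libraries they were Cyp2f2, Mup20, Hsd17b13, Hpx and Alb. For Cyp2f2, a periportal cytochrome P450 and a marker of the zone score, r was 0.34 on chow over 2004 hepatocytes and 0.67 on the NASH diet over 1090. The values were 0.34 and 0.53 for Mup20, 0.31 and 0.64 for Hsd17b13, 0.31 and 0.63 for Hpx, and 0.30 and 0.61 for Alb. Over all 1836 genes the median r was -0.02 and -0.05, with 95% of genes under 0.11 on chow and 0.25 on the NASH diet. Hsd17b13 is a zone marker too, Mup20 belongs to a family of near-identical genes whose reads may be split, and all cells of a library share its free RNA.

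The members did not vary as 1 block between cells. Of 36 pairs among the 9 measured members, r was above 0 in 26 on chow and 26 on the NASH diet. Apoa2, Apoc1 and Apoc3 varied together: r was 0.61 on chow and 0.82 on the NASH diet for Apoa2 with Apoc1, 0.57 and 0.75 for Apoa2 with Apoc3, and 0.51 and 0.73 for Apoc1 with Apoc3. Apoa5 and Apob formed another pair (0.50 and 0.60), as did Apoa1 and Apoe (0.63 and 0.59). Between these sets r could be negative, as for Apob with Apoc1 (-0.28 and -0.26). Apoa4 was nearest to Apoc3 on chow (0.19) and to Apoa1 on the NASH diet (0.40). The first set is that of the 3 genes with the shortest exon totals among the 9. They were higher at under 10% mitochondrial UMIs than at 10 to 20% in both libraries, while Apob, Apoa5 and Mttp were lower. The part of mitochondrial share and RNA quality in these r values was not tested.

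Outside hepatocytes, Apoe stood apart from the other members. Kupffer cells are the macrophages of the liver, and macrophages are known to make apolipoprotein E. Free RNA from broken hepatocytes reaches every droplet, so each gene was set against Apoa1 in the same barcodes, on the assumption that free RNA keeps 1 ratio. In Kupffer barcodes (62 on chow, 33 on the NASH diet) there were 19.8 Apoe UMIs per Apoa1 UMI on chow (17.3 to 22.7) and 17.1 on the NASH diet (14.1 to 20.8). The same ratio was 1.29 and 2.11 in hepatocytes. It was 1.59 and 1.68 in barcodes with 2000 UMIs or fewer and no gate, used here as a measure of free RNA. Apoa2 per Apoa1 was 1.89 on chow and 1.49 on the NASH diet in Kupffer barcodes, and 2.40 and 2.39 in those with low UMIs. Apoc3 per Apoa1 was 0.867 and 0.292 against 0.782 and 0.742. Alb per Apoa1 was 2.50 and 1.91 against 1.15 and 1.96, and Apob per Apoa1 0.212 and 0.230 against 0.104 and 0.163. The assumption of 1 ratio thus held only roughly, with departures for Apoc3 on the NASH diet and for Alb and Apob on chow. The Kupffer values of Apoe depended on few barcodes. Without the chow barcode that held the most Apoa1 UMIs its chow ratio was 30.4. With the gate at 1% of UMIs its ratios were 34.4 and 22.2. The lowest values over the gates and mitochondrial limits tried were 18.9 and 13.5, so Apoe in Kupffer barcodes was above that free RNA ratio in each of them.

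The Apoe level in Kupffer barcodes was 11618 CPM on chow and 27114 on the NASH diet, a log2 ratio of 1.22 (1.14 to 1.30). With the gate at 1% it was 0.80, from 11362 to 19830 CPM in 61 and 29 barcodes, and so no longer past 1. Hepatocyte genes in the same barcodes differed among themselves: Alb had a ratio of 1.05, Apoa1 1.43 and Apoa2 1.09, but Apoc1 0.15 and Apoc3 -0.14. The 8 hepatocyte markers together were at 4484 and 6153 CPM, and median depth was 4537 UMIs on chow and 1307 on the NASH diet. The ratio of Apoe to Apoa1 was not higher on the NASH diet. On chow 1 Kupffer barcode held 40.3% of the class's Apoa1 UMIs and 9.30% of its Apoe UMIs. Over single Kupffer barcodes the median Apoe level was 8496 and 24570 CPM, with ranges of 1766 to 84298 and 4425 to 87092 that overlap. The part of hepatocyte RNA, depth and the few cells in this difference was not tested.

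In endothelial barcodes (49 and 42) Apoe was at 3717 and 3042 CPM, and its ratio to Apoa1 was 6.46 (5.42 to 7.74) on chow and 8.16 (6.70 to 10.0) on the NASH diet, above that of barcodes with low UMIs in both. Mesenchymal barcodes were 1 and 6 and cholangiocyte barcodes 1 and 2, with 37.0 and 30.9 and with 14.5 and 116 Apoe UMIs per Apoa1 UMI, too few cells to describe either class. Apoc1 per Apoa1 was 7.93 (6.90 to 9.15) in Kupffer barcodes on chow and 3.25 (2.62 to 4.05) on the NASH diet, beside 2.92 and 3.23 in barcodes with low UMIs. With the gate at 1% it was 10.8 and 4.09, and without the chow barcode above 10.2 on chow. Its ratio to Apoa1 thus stood above that background on chow, but so did those of Alb and Apob. Whether the chow value of Apoc1 is expression by Kupffer cells was not tested. The NASH diet value is not read, since Apoc3 and Apoa2 per Apoa1 were both lower there in Kupffer barcodes than in those with low UMIs. Apoa4 had 1 and 5 UMIs in Kupffer and 3 and 8 in endothelial barcodes, which is too few to read as expression.

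**Figure D5:**
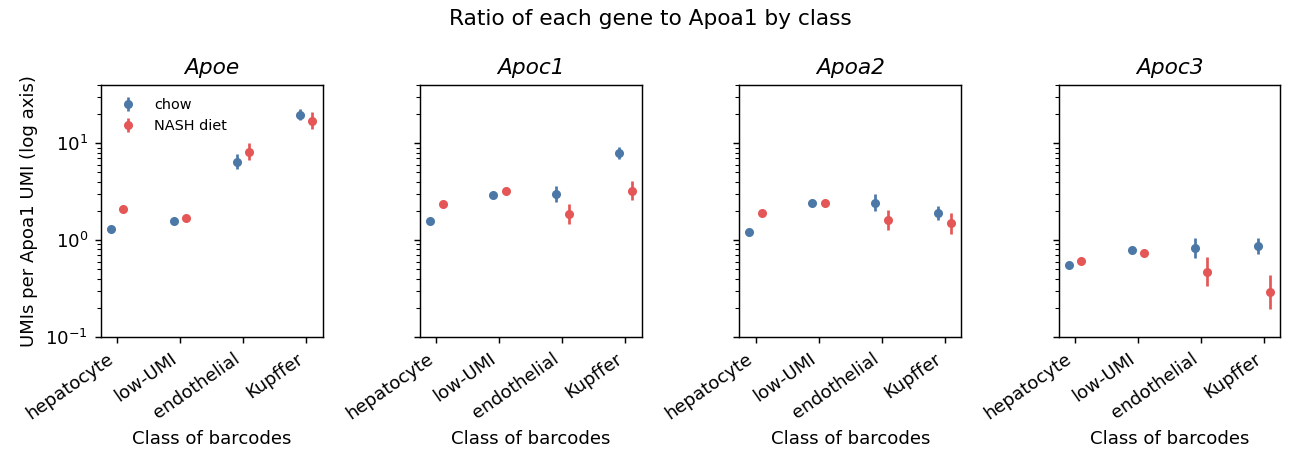
UMIs of Apoe, Apoc1, Apoa2 and Apoc3 per Apoa1 UMI (log axis) in hepatocytes, low-UMI, endothelial and Kupffer barcodes of the chow (blue) and NASH diet (red) libraries, with 95% counting intervals. Apoe reaches 19.8 and 17.1 in Kupffer barcodes against 1.59 and 1.68 in low-UMI barcodes.

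In the barcodes with low UMIs, 1960 on chow and 930 on the NASH diet, Apoa4 was at 47.0 and 270 CPM, a log2 ratio of 2.50 (2.14 to 2.92). Apoe, Apoa2 and Apoc1, higher on the NASH diet in hepatocytes, were lower there: -0.49, -0.57 and -0.43. Alb had a ratio of 0.19 in the same barcodes, but the 8 hepatocyte markers together were lower, at 29942 and 19504 CPM. Their median mitochondrial share was 6.46% on chow and 22.6% on the NASH diet and their median depth 653 and 1075.5 UMIs, and the part of these in the values was not tested. Apoa4 was thus higher on the NASH diet in both sets of barcodes, and the direction of those 3 genes differed between the sets.

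The genes that work with these members were counted from 4 lists in hepatocytes, by the same filter and threshold. Of 15 measured genes of particle assembly and secretion, 0 were past 1 in either direction, beside 5.29% of all genes. At that share, 0 in so short a list does not set it apart. Its median ratio was 0.06, beside 0.14 over all genes. Mia2, a cargo receptor for large particles leaving the endoplasmic reticulum, was at 117 and 193 CPM (0.71), and A1cf, a cofactor of Apob RNA editing, at 15.7 and 25.4 (0.66). Pdia3, a disulfide isomerase, was at 427 and 228 CPM (-0.90), and Tm6sf2, which takes part in loading lipid onto particles, at 23.9 and 14.8 (-0.66). Of 11 genes listed as other apolipoproteins and related genes, 0 were past 1 in either direction, beside the same 5.29%. This list is as short, and its median ratio was -0.14. Apom and Apon were lowest at -0.83 and -0.79. The 2 highest are no proteins of plasma particles: Apool (0.43) encodes a mitochondrial protein and Naxe (0.28) an intracellular epimerase known to bind apolipoprotein A-I.

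Of 7 enzymes and inhibitors that act on particles in plasma, 1 was past 1 and 0 past -1, with a median of 0.62, beside 2.99% of all genes past 1 and 2.30% past -1. Lpl, lipoprotein lipase, had 48 UMIs (0.935 CPM) on chow and 1153 (50.1 CPM) on the NASH diet, a log2 ratio of 4.72 with the pseudocount and of 5.33 to 6.19 by its counting interval without it. The fullest cell held 20.8% of its chow and 2.69% of its NASH diet UMIs. Lpl passed the filter only through its NASH diet level, which fixed a ratio past 1, so the count of 1 is not read. Lcat, which esterifies cholesterol on high density lipoprotein, had a ratio of -0.40, and Pla2g12b one of -0.28.

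Of 16 transcription factors, 2 were past 1, Ppara (33.1 to 84.6 CPM, 1.33) and Nr2f2 (25.3 to 59.5, 1.20), and 1 was past -1, Srebf2 (-1.32), beside the same 2.99% and 2.30% of all genes. Rora was at -0.52. Creb3l3, a liver factor known to act on Apoa4, was at 212 and 274 CPM (0.37) and Hnf4a at 231 and 162 (-0.51). These last 2 were named after their values were seen.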

How the data were processed

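The values are raw UMI counts per gene and barcode that the authors deposited as 10x matrices. Their headers name Cell Ranger 3.0.2. The submitters' processing notes name Cell Ranger 3.1.0, Seurat and mm10. The labels name the 10x 3' kit, whose reads sit at transcript ends, so UMIs do not scale with gene length. The members and the gene lists were chosen with earlier results of these data known.

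Barcodes needed 200 genes, 500 UMIs and at most 30% mitochondrial UMIs. A cell class needed 5 UMIs, 3 different markers and 0.5% of UMIs from its markers, and no other gate. No member is a marker. Hepatocytes had at least 5000 UMIs and no gate. Counts were summed per library and class, given as CPM with exact Poisson intervals, and compared as log2 ratios with a pseudocount of 1 CPM and exact conditional binomial intervals. Genes with a mean of at least 10 CPM were counted. Named genes were the members, the 2 list genes with the largest ratio in each direction and the 5 genes most like Apoa4. A list of uptake and efflux genes and a single gene of another list are not reported here. The depth was 71635757 UMIs in chow and 39440182 in NASH diet. Positions are from GENCODE M21, which held 31011 of 31053 gene IDs. Scrublet called 0 doublets in either library, so it did not work and none were removed; leaving out the highest scores was an alternative. Other alternatives were depth, mitochondrial limits and ranges, scaling, pseudocounts, filters, mean over cells, clusters built without the members (Leiden), the merged matrix, zone rules and thinning. Splits by zone within depth ranges and by 10 bins of the zone score, and values without 1 Kupffer barcode were added after seeing the data. Calculations used Python 3.11.15, numpy 2.4.6, scipy 1.17.1 and scanpy 1.11.5, and were tested on simulated data.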

Additional observations from a re-analysis of the deposited data

Results flagged for a closer look

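In several cell classes and zones a member's diet ratio had the opposite sign to that in hepatocytes or in another zone. None of these differences was tested, since there is 1 library per diet.

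In Kupffer barcodes the log2 ratio, NASH diet over chow, was 1.43 for Apoa1 and 1.54 for Apob, while both were just under 0 in hepatocytes. Alb, which Kupffer cells should lack, had a ratio of 1.05 in the same barcodes, and Apob rested on 48 and 26 UMIs. Without the chow barcode that held the most Apoa1 UMIs the ratios were 2.10 for Apoa1, 2.58 for Apob and 2.24 for Alb. In endothelial barcodes Apoa2 was at -1.23, Apoc1 at -1.30, Apoc3 at -1.43 and Apoe at -0.29, while all 4 were above 0 in hepatocytes. In barcodes with low UMIs these 4 genes were also lower on the NASH diet, at -0.57, -0.43, -0.64 and -0.49. The part of free RNA in the values of both classes was not tested.

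Between zones, Apoa1 had a ratio of -0.30 in pericentral hepatocytes and was above 0 in middle and in periportal ones. Apoa5 was at -0.49 in pericentral and 0.06 in periportal hepatocytes. Apoc3 was at -0.07 in pericentral, 0.24 in middle and 0.13 in periportal hepatocytes. Mttp was at 0.19 in pericentral and -0.22 in periportal hepatocytes. The median mitochondrial share was 20.2% on chow and 21.7% on the NASH diet in pericentral hepatocytes, 18.0% and 23.4% in middle and 17.7% and 24.1% in periportal ones, and its part in these differences was not tested.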

How the results depend on the processing

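No diet ratio of Apoa4 in hepatocytes fell below 1 in 20 alternatives. It was 2.87 with a mitochondrial limit of 10%, 2.38 at 20% and 2.85 at 50%, 2.86 per non-mitochondrial UMI, 2.90 as a mean over cells, 2.74 without the highest doublet scores, 2.75 in hepatocyte-like clusters, 2.66 scaled by the median ratio and 2.72 with a pseudocount of 10 CPM. Within ranges of depth it was 3.47, 3.01 and 2.13, and within ranges of mitochondrial share 2.87, 2.65 and 3.47. Its periportal ratio on chow was 2.56 with zones by Cyp2f2 and Cyp2e1 alone and 2.45 with a limit of 20%. On the NASH diet it was 3.14 with cuts over both libraries and 2.44 with a limit of 50%. Shares of hepatocytes with an Apoa4 UMI were 18.8% and 57.3% thinned to 2000 UMIs and 70.4% and 87.9% unthinned. Of the 20 alternatives for diet ratios, the limit of 10% and the range under 10% are the same hepatocytes, counted separately here. Apoe, Apoa2, Apoc1 and the low Apoc2 were above 0 in 20 of 20 alternatives, Apoc2 at 1 or more in 4; Apoc3 was in 18, Apoa1 in 7, Mttp in 5, Apob in 3 and Apoa5 in 2. Genes past 1 in either direction numbered 329 of 6217 (5.29%). They were 572 of 10365 (5.52%) with a filter of 1 CPM, 161 of 2093 (7.69%) with 50 CPM and 597 of 16278 (3.67%) with none. Members past 1 numbered 1 in all of these. No paired analysis was possible because each diet has 1 library.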
